A study of Mus musculus with 6 samples.

Results

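The leptin receptor gene *Lepr* and 9 genes of signalling through gp130 were followed in primary cultures that the study describes as endothelial cells. The cells came from the stria vascularis, the vascular tissue of the lateral wall of the cochlea. The methods of the study took this tissue together with the spiral ligament. The 10 genes were taken by symbol from the 24421 genes of the deposited count table: the receptor subunits *Lepr*, *Il6st* (gp130), *Lifr*, *Osmr* and *Il11ra1*, the transcription factor *Stat3*, its feedback inhibitor *Socs3*, and the ligands *Lif*, *Il6* and *Il11*. Of these, 9 had enough counts to be tested and *Il6* did not. RNA was sequenced from 3 *Nhe6*-knockout and 3 wildtype cultures of mice on postnatal days 10 to 12, with no treatment. The knockout is a targeted disruption that is not limited to a cell type. Each culture was pooled from several mice, and the labels give the background C57BL/6N for both genotypes, whereas the methods of the study name the C57bl6/j background.

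Cytokines of the interleukin-6 family signal through receptor complexes that share gp130. A ligand joins gp130 to a partner such as the LIF receptor, the oncostatin M receptor or the interleukin-11 receptor, Janus kinases bound to the complex phosphorylate STAT3, and STAT3 then activates genes that include *Socs3*, whose product blocks the receptor again. The leptin receptor is a close structural relative of gp130 that pairs with itself and also signals through JAK2 and STAT3. In endothelium, leptin and this cytokine family are known for roles in inflammation, vessel growth and barrier function.

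Gene counts per library lay between 25587097 and 29126232. Wildtype replicate 2 stood apart, at 106 on the first principal component against -28.5 to -6.52 in the other libraries, and *Nhe6*-knockout replicates 1 and 2 were closer to each other than any other pair (a chi-square per degree of freedom of 4.91 against 90.1 to 398). Of 15 endothelial marker genes, 8 were tested and 1 passed the threshold, *Cdh5*, which encodes VE-cadherin and was lower in *Nhe6*-knockout cultures. Its adjusted p of 0.0133 in edgeR's test was 0.179, 0.179 and 0.0642 without *Nhe6*-knockout replicates 1, 2 and 3 in turn and 0.103 without wildtype replicate 3. Other markers of the list were well counted: *Emcn* had 409 to 18396 normalized counts, *Eng* 866 to 5081, *Cd34* 793 to 4864, *Flt1* 378 to 3173 and *Tek* 189 to 1006. *Pecam1* had at most 7.82, and 3 of the 15 had no counts in any library, *Cldn5*, *Sox17* and *Robo4*. The name endothelial is thus the study's, and the identity of the cells was not tested here. The 12 fibroblast markers, which include matrix genes that cultured cells of other types also make, summed to between 281223 and 421062 normalized counts. Macrophage markers summed to 1502 to 3933 in *Nhe6*-knockout and 95.9 to 3711 in wildtype cultures, with the lowest value in wildtype replicate 2.

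*Lepr* (ENSMUSG00000057722, chr4:101717404-101815352, plus strand, mm10) was lower in all 3 *Nhe6*-knockout cultures than in any wildtype culture. Normalized counts, which are counts scaled to the mean library size, were 314, 319.7 and 442 in *Nhe6*-knockout replicates 1, 2 and 3 and 1140, 2359 and 3475 in wildtype replicates 1, 2 and 3. The wildtype cultures thus differed among themselves more than the *Nhe6*-knockout cultures did, of which replicates 1 and 2 were the closest pair of libraries over all genes. The means were 359 ± 72.3 and 2325 ± 1168 (SD, n = 3), which is 6.48-fold lower. The log2 fold change was -2.70 (SE 0.42, 95% interval -3.71 to -1.68), with an adjusted p of 0.0952 in edgeR's quasi-likelihood test over all 13479 genes tested, so it did not pass the threshold of 0.05. Among all genes tested, 0.0668% passed, and by p *Lepr* ranked 70. With DESeq2's Wald test the adjusted p was 3.94e-08, and without wildtype replicate 2 edgeR's was 0.043 with a log2 fold change of -2.69. With *Nhe6*-knockout replicates 1 and 2 summed, edgeR's adjusted p was 0.458. Over 14 settings the adjusted p ranged from 3.94e-08 to 0.471. DESeq2 called 3.99% of its genes, which are the 14879 that it gave an adjusted p, and edgeR called 2.88% without wildtype replicate 2. The log2 fold change lay between -3.03 and -2.29 in every one of the 14 settings. *Lepr* is among the genes that the study displayed because they were lowest in these same libraries, so its direction here is not independent evidence. Counts per gene do not separate the long form of the receptor, which signals through STAT3, from its short forms, and in bulk RNA fewer cells with *Lepr* and less *Lepr* per cell cannot be told apart.

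The summed cell cycle markers, like *Lepr*, did not overlap between the genotypes. The 16 cell cycle markers summed to 8546 to 15535 normalized counts in *Nhe6*-knockout and 2618 to 3981 in wildtype cultures. All 16 had a log2 fold change above 0, with a median of 2.57, and 0 of them passed edgeR's threshold. An unadjusted p under 0.05 was found for 15 (93.8%, against 11.8% of all genes tested), and 14 were higher without overlap (87.5%, against 10.4%). DESeq2 called 13, against 3.99% of all its genes. The summed endothelial markers, of which *Emcn* made up most outside wildtype replicate 2, overlapped between the genotypes, at 16670 to 25754 and 15841 to 23455. Of the 8 single endothelial markers tested, 5 had a log2 fold change below 0 and 3 above, up to 0.76. An unadjusted p under 0.05 was found for 3 (37.5%, against 11.8% of all genes tested), all lower in *Nhe6*-knockout cultures, and 25.0% were lower without overlap, against 9.54%. The latter were *Cdh5* and *Flt1*, a receptor for vascular growth factors. *Flt1* had 578, 561 and 378 against 920.4, 3173 and 1150 normalized counts. Its log2 fold change was -1.79 (adjusted p = 0.242 in edgeR's test), and -1.04 without wildtype replicate 2. Without that culture the median of the endothelial markers went from -0.80 to 0.00. EdgeR then called 1 of 10 tested endothelial markers higher and 1 lower, against 2.88% of all genes tested in that fit. Of 11 tested mural cell markers, 7 had a log2 fold change above 0 and 4 below, from -3.14 to 2.33, with a median of 0.59. Without overlap 5 were higher (45.5%, against 10.4% of all genes tested) and 0 were lower, and 0 passed edgeR's threshold. *Notch3*, a receptor of mural cells, had 1843, 1946 and 2830 against 692, 1379 and 722 normalized counts, and *Abcc9*, a potassium channel subunit, had 233, 208 and 149.6 against 38.1, 3.09 and 76.0. The summed mural markers overlapped, at 22164 to 24473 and 16351 to 35295. Of 12 tested fibroblast markers, 9 had a log2 fold change above 0 and 3 below, from -3.35 to 1.0, with a median of 0.13. Without overlap 3 were higher (25.0%, against 10.4% of all genes tested) and 0 were lower, and 0 passed edgeR's threshold. Their sums overlapped, at 297652 to 328118 and 281223 to 421062. The part of these cell types and states in the *Lepr* difference was not tested.

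The gene next to *Lepr* gives a comparison within the same locus. *Leprot* (chr4:101647718-101659364), which encodes a protein that limits leptin receptor at the cell surface, ends 58039 bases before *Lepr* begins and shares no exon bases with it in GENCODE M21. *Leprot* had 4224, 4036 and 5471 normalized counts in *Nhe6*-knockout and 3994, 5686 and 6287 in wildtype cultures, and the genotypes overlapped (log2 fold change -0.22, SE 0.21, 95% interval -0.74 to 0.30, adjusted p = 0.759 in edgeR's test). Per kilobase of exon, there were 2.0, 2.13 and 2.18 *Lepr* counts for every 100 *Leprot* counts in *Nhe6*-knockout cultures. In wildtype cultures the ratio was 7.69, 11.2 and 14.9, above all *Nhe6*-knockout cultures (two-sided exact permutation p = 0.1, the smallest that 3 against 3 allow). *Leprotl1*, the paralogue of *Leprot*, had 1575, 1557 and 1304 against 2216, 2299 and 2050 normalized counts. Its log2 fold change was -0.57 (SE 0.12) with an adjusted p of 0.14 in edgeR's test and of 0.0191 in DESeq2, the lowest of its alternatives, which reached up to 0.547. Of the 6 partners and neighbours of *Lepr* on the list, 6 were tested, 1 had a log2 fold change above 0 and 5 below, the median was -0.25, and 0 passed edgeR's threshold.

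The 250 bases before the RefSeq starts of these neighbours and of *Socs3* follow, because *Lepr* and *Leprot* lie side by side and had different patterns, and because *Socs3* is the feedback gene of the pathway. The sequences are RefSeq's for GRCm38.p6 and run 5′ to 3′ on the strand of the gene, from chr4:101717157-101717406 (plus) for *Lepr*, chr4:101647533-101647782 (plus) for *Leprot* and chr11:117969367-117969616 (minus) for *Socs3*. Capitals mark the one match to the STAT motif TTCNNNGAA, which reads the same on both strands.
Lepr: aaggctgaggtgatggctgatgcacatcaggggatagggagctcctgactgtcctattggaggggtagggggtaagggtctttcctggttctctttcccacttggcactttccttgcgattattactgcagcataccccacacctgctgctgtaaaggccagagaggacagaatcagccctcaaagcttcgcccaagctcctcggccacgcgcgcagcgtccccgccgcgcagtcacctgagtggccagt
Leprot: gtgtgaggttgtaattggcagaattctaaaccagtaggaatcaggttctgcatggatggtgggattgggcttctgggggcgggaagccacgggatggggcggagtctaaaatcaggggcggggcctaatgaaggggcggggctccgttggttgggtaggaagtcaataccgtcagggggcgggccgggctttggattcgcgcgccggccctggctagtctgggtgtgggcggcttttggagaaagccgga
Socs3: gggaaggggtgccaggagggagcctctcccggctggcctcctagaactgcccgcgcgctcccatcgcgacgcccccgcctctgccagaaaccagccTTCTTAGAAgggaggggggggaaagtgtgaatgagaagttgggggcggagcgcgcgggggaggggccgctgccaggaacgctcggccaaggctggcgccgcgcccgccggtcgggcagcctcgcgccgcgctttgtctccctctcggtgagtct
All 10 genes had a window in the RefSeq table, 14 windows in all, and *Socs3* was the only one of the 10 with the motif, which begins 154 bases before the RefSeq start. This *Socs3* window lies within the span that GENCODE M21 gives the gene. Over all genes, 7.02% of 32851 windows held the motif. *Lepr* has 2 RefSeq starts, of which the first is shown. The second window, at chr4:101717656-101717905, had 54.8% G and C and 10 CpG. The first *Lepr* window had 58.4% G and C and 10 CpG, the *Leprot* window 60.8% and 15, and the *Socs3* window 71.6% and 26, against medians of 52.4% and 6 over all windows. These letters describe the windows and say nothing of binding in the cultures.

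**Figure D1:**
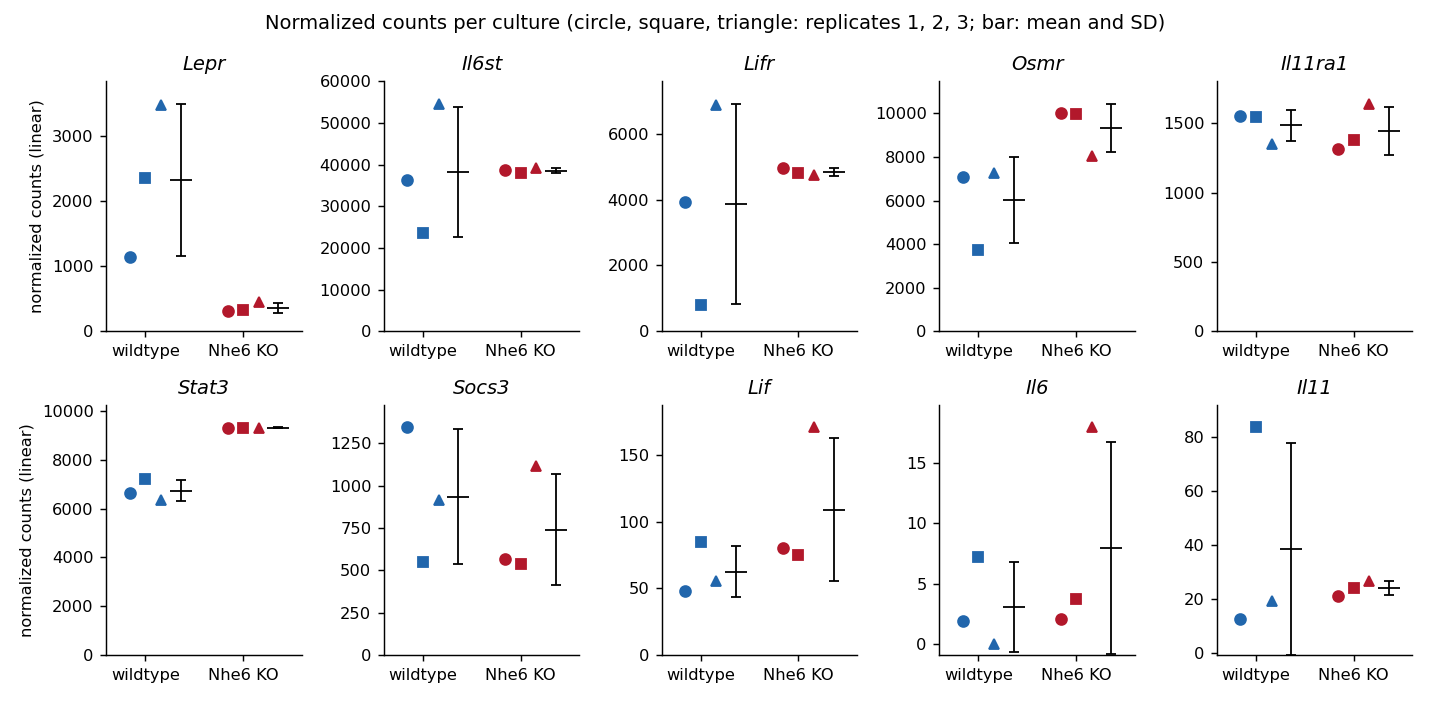
Normalized counts (linear axes) of the 10 genes in each culture, with wildtype in blue, *Nhe6*-knockout in red, symbols for replicates 1, 2 and 3, and the mean with its SD in black. *Lepr* is lower in all 3 *Nhe6*-knockout cultures (314 to 442) than in the wildtype cultures (1140 to 3475), *Stat3* and *Osmr* are higher, and wildtype replicate 2 is low for *Il6st* and *Lifr* and high for *Il11*.

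Of the 4 other receptor subunits, none passed the threshold. *Il6st* (chr13:112464070-112510086), the shared subunit gp130, had the most counts of all members, with 38676, 37914 and 39097 in *Nhe6*-knockout and 36422, 23530 and 54618 in wildtype cultures. The *Nhe6*-knockout values lay within the wildtype range, and the log2 fold change was 0.01 (SE 0.32, 95% interval -0.75 to 0.78). Without wildtype replicate 2 it was -0.25.

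*Lifr* (chr15:7090614-7197489), which joins gp130 to bind LIF, had 4980, 4822 and 4738 normalized counts in *Nhe6*-knockout cultures. Wildtype cultures had 3933, 785 and 6886, so that replicate 2 was the lowest of all libraries. The log2 fold change of 0.33 (SE 0.67, 95% interval -1.28 to 1.93) turned to -0.16 without that culture. *Osmr* (chr15:6813577-6874969), the partner of gp130 for oncostatin M, had 9998, 9953 and 8052 normalized counts in *Nhe6*-knockout and 7080, 3726 and 7271 in wildtype cultures, without overlap. Its log2 fold change was 0.63 (SE 0.28, 95% interval -0.03 to 1.30) with an adjusted p of 0.443 in edgeR's test, and 0.37 without wildtype replicate 2.

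*Il11ra1* (chr4:41699989-41769474), the interleukin-11 receptor, had the smallest SE of the receptors. The means were 1445 ± 172 in *Nhe6*-knockout and 1484 ± 114 in wildtype cultures (SD, n = 3), with a log2 fold change of -0.04 (SE 0.13, 95% interval -0.36 to 0.29). Its near-identical copy *Il11ra2* had no counts in any library, and the count of *Il11ra1* holds only reads that could be placed at 1 site. *Il11ra1* also shares exon bases with *Ccl27a* on the opposite strand, and the strand setting of the counting is not given in the sources used here.

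Among the further receptors of the family, *Il31ra*, a partner of the oncostatin M receptor that lies beside *Il6st*, is described because of its values. It had 1132, 1087 and 796 normalized counts in *Nhe6*-knockout and 3335, 129.9 and 3623 in wildtype cultures. Wildtype replicate 2 was below all others, and the log2 fold change was -1.23 (SE 0.98, adjusted p = 0.687 in edgeR's test). Without that culture it was -1.80 (adjusted p = 0.0167), within a range of adjusted p from 0.0167 to 0.996 over 14 settings. Of the 10 receptors of the list, 9 were tested, 6 had a log2 fold change above 0 and 3 below, the median was 0.27 against -0.02 over all genes tested (-0.16 without wildtype replicate 2), and *Lepr* was the only one with an unadjusted p under 0.05.

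The make-up of the receptor pool was compared as the share of each subunit in the counts per kilobase of exon of the 5 receptors. *Il6st* supplied most of it, between 66.6% and 70.7% in every culture, and its mean share differed by -0.33 percentage points between the genotypes (two-sided exact permutation p = 1.0). *Lepr* made up 0.873%, 0.9% and 1.24% in *Nhe6*-knockout and 3.41%, 10.5% and 7.09% in wildtype cultures, a difference of -6.0 percentage points without overlap. *Osmr* made up 16.1%, 16.3% and 13.1% against 12.3%, 9.67% and 8.63%, a difference of 4.99 percentage points in the other direction and also without overlap. Both had an exact permutation p of 0.1, the smallest possible. The shares of *Lifr* (8.87% ± 0.174 and 6.39% ± 3.63, SD, n = 3) and *Il11ra1* (6.38% ± 0.781 and 7.52% ± 3.26) overlapped between the genotypes. Since the shares sum to the whole, a lower share of 1 receptor raises the sum of the others. The normalized counts of *Osmr* themselves were also higher without overlap, at 8052 to 9998 against 3726 to 7271.

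**Figure D2:**
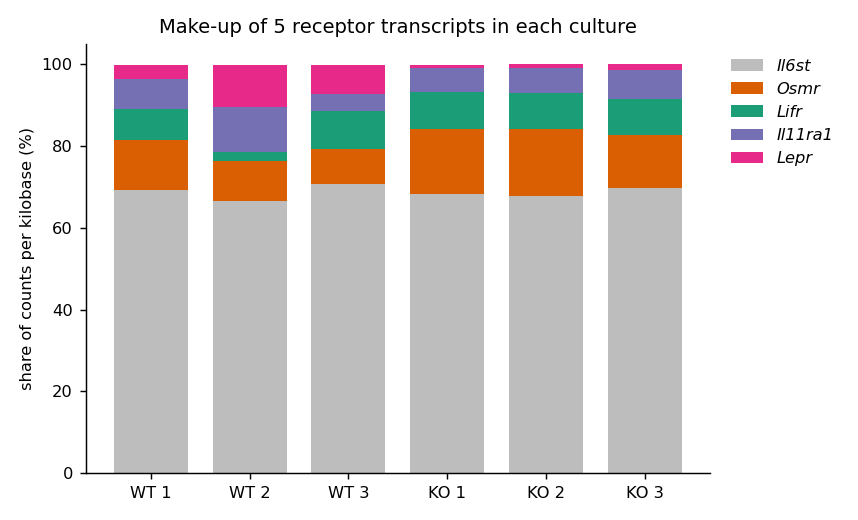
Share of each of 5 receptor subunits in their summed counts per kilobase of exon (%, stacked from 0), with 1 bar for each wildtype (WT) and *Nhe6*-knockout (KO) culture. *Il6st* takes 66.6% to 70.7% of each bar, and the *Lepr* segment is 0.873% to 1.24% in the *Nhe6*-knockout cultures against 3.41% to 10.5% in the wildtype cultures.

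*Stat3* (chr11:100885098-100939540, minus strand), the transcription factor downstream of these receptors, was higher in each *Nhe6*-knockout culture. It had 9326, 9293 and 9325 normalized counts against 6659, 7233 and 6346 in wildtype cultures. The log2 fold change was 0.47 (SE 0.12, 95% interval 0.18 to 0.75), or 1.38-fold, with an adjusted p of 0.203 in edgeR's test. DESeq2 gave an adjusted p of 0.0167, within a range of 0.0167 to 0.752 over 14 settings, and the log2 fold change stayed between 0.42 and 0.51. An exon of *Stat5a* overlaps *Stat3* on the opposite strand. The libraries were stranded, but the strand setting of the counting is not given in the sources used here.

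Of the 11 genes of the JAK and STAT list, 10 were tested, and the 4 with an unadjusted p under 0.05 (40.0%, against 11.8% of all genes tested) were all higher in *Nhe6*-knockout cultures, among them *Stat2*, *Stat3* and *Jak3*. None passed the adjusted threshold in edgeR's test. DESeq2 called 4 of the 11, all higher, against 593 of all 17769 genes with a count. *Stat2*, a transcription factor of the interferon response, had 3880, 4074 and 1349 against 1202, 1166 and 1131 (log2 fold change 1.41, SE 0.40, adjusted p = 0.249 in edgeR's test). *Nhe6*-knockout replicate 3 was the lowest of its genotype, and replicates 1 and 2 were nearly alike.

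The kinases that serve gp130 and the leptin receptor did not share 1 direction. *Jak1*, the main kinase of gp130, had 12578 ± 1553 normalized counts in *Nhe6*-knockout and 12803 ± 1103 in wildtype cultures (SD, n = 3), with a log2 fold change of -0.03 (SE 0.16). *Jak2*, the kinase of the leptin receptor, had 1837 ± 306 and 2393 ± 364 (SD, n = 3), with a log2 fold change of -0.38 (SE 0.18, adjusted p = 0.466 in edgeR's test). *Jak3*, a kinase of lymphoid cytokine receptors, was low in all libraries, at 261, 336 and 257 against 185, 119 and 87.8 normalized counts, without overlap (log2 fold change 1.13, SE 0.32, adjusted p = 0.247 in edgeR's test). *Tyk2* was also higher without overlap, by a log2 fold change of 0.18 (95% interval -0.16 to 0.51), and *Stat5b* was lower without overlap, by one of -0.26 (95% interval -0.55 to 0.03).

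*Socs3* (chr11:117966079-117970047, minus strand) varied within both genotypes. It had 564, 539 and 1118 normalized counts in *Nhe6*-knockout and 1343, 548 and 914 in wildtype cultures. The genotypes overlapped over nearly their whole range, with a log2 fold change of -0.34 (SE 0.42, 95% interval -1.34 to 0.67) that was 0.01 without wildtype replicate 1. That wildtype culture was also the highest for *Fos* (3165, 3682 and 15360 against 48904, 8874 and 17056) and for *Ier3* (309, 402 and 646 against 1931, 513 and 871), both immediate early genes.

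Of the 20 feedback and adaptor genes, all were tested, 10 had a log2 fold change above 0 and 10 below, and 0 passed the threshold by edgeR or DESeq2. *Ptpn1*, a phosphatase that acts on JAK2, was the only one with an unadjusted p under 0.05, with 1772, 1967 and 1545 normalized counts against 1424, 1162 and 1074 (log2 fold change 0.53, SE 0.16, adjusted p = 0.27 in edgeR's test). *Ptprj*, a receptor phosphatase, was higher without overlap, at 927, 904 and 938 against 477, 321 and 892. *Pias1*, an inhibitor of STAT signalling, and *Gab1*, an adaptor, were lower without overlap, with log2 fold changes of -0.24 (95% interval -0.51 to 0.03) and -0.34 (95% interval -0.69 to 0.02). *Ptpn11*, the phosphatase SHP2 and the adaptor for gp130, had the most counts of the list, at 6883 ± 46.3 and 7722 ± 1546 (SD, n = 3), with a log2 fold change of -0.17.

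**Figure D3:**
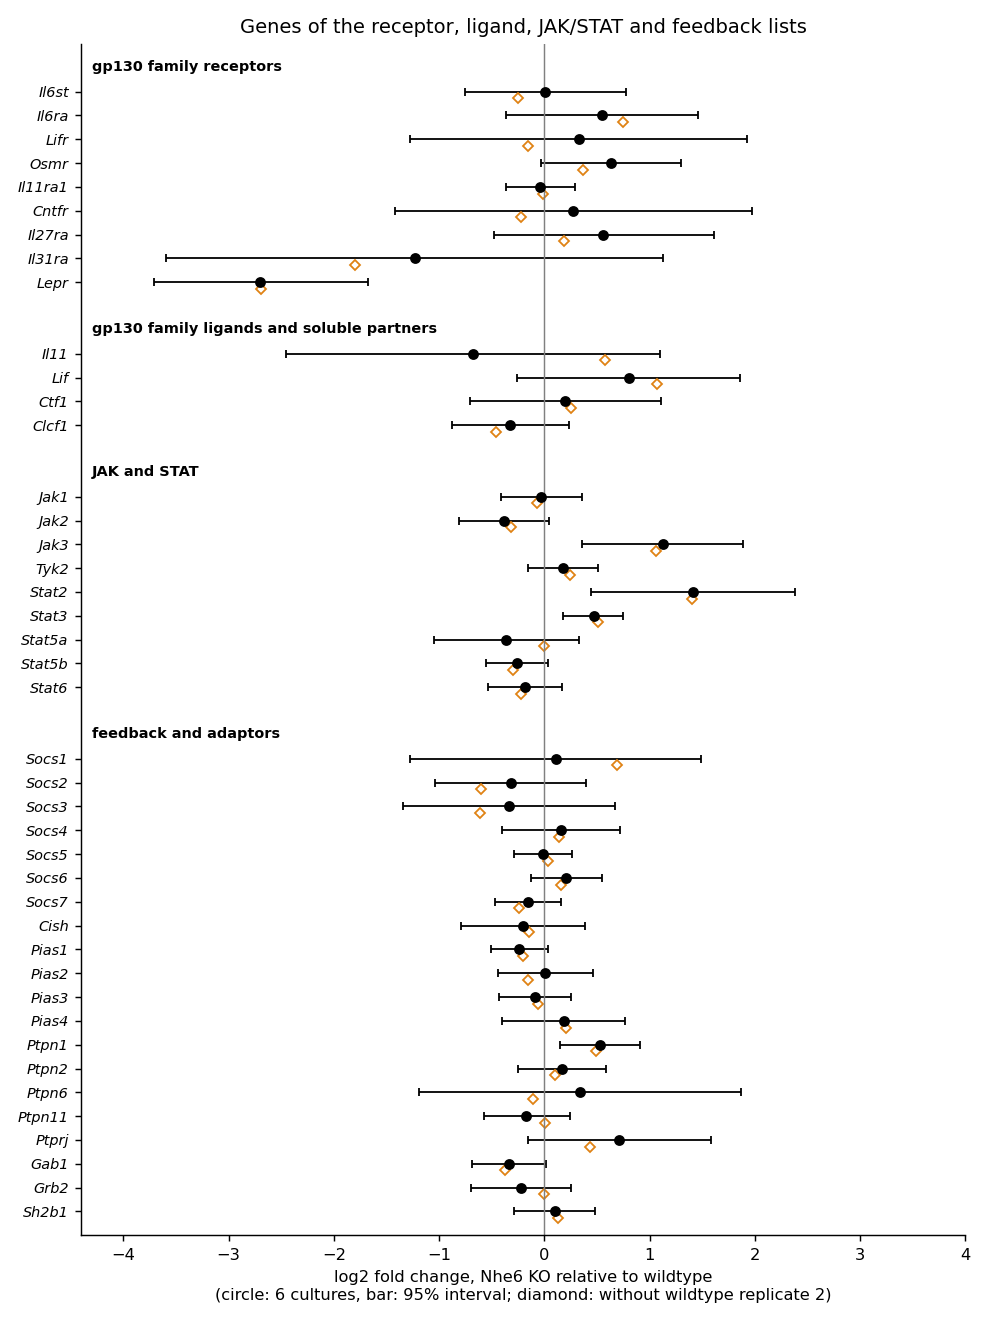
Log2 fold change of *Nhe6*-knockout relative to wildtype (horizontal axis) for tested genes of the receptor, ligand, JAK and STAT, and feedback and adaptor lists, with 95% intervals from edgeR's fit of 6 cultures and open diamonds for the fit without wildtype replicate 2. The interval of *Lepr* (-3.71 to -1.68) lies farthest from 0, those of *Stat2*, *Stat3*, *Jak3* and *Ptpn1* lie above 0, and the intervals of the other genes drawn include 0.

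The ligands were low or not detected. *Lif* (chr11:4257557-4272514), the ligand of the LIF receptor, had 80.7, 75.3 and 171 normalized counts in *Nhe6*-knockout and 47.9, 84.6 and 55.6 in wildtype cultures, so that *Nhe6*-knockout replicate 3 stood above the rest. The log2 fold change was 0.80 (SE 0.44, 95% interval -0.26 to 1.86, adjusted p = 0.544 in edgeR's test), and 0.31 without that culture. *Il11* (chr7:4772373-4782859, minus strand) had 21.2, 24.2 and 26.5 against 12.7, 83.5 and 19.3 normalized counts, and wildtype replicate 2 was the highest. Its log2 fold change of -0.68 (SE 0.74) became 0.58 without that culture. *Il6* (chr5:30013114-30019981) was counted 2, 4 and 19 times in *Nhe6*-knockout and 2, 7 and 0 times in wildtype libraries, and the 0 allows up to 3 counts. A difference in *Il6* could not be judged at this depth.

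Of the 13 ligands and soluble partners of the family, 5 were tested, and 0 had an unadjusted p under 0.05. *Lep*, which encodes leptin itself, had no counts in any library, as did *Ctf2* and *Il27*, and *Osm* had between 0 and 5 counts. *Clcf1*, a further ligand of the family, had 271 ± 46.6 normalized counts in *Nhe6*-knockout and 340.1 ± 71.9 in wildtype cultures (SD, n = 3). Ligands supplied in the serum and growth factor of the culture medium are not seen in RNA.

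Among the 30 genes listed as targets of STAT3, 28 were tested, 12 had a log2 fold change above 0 and 16 below, the median was -0.23, and 0 passed the threshold in edgeR's test. Of these, 4 had an unadjusted p under 0.05, which at 14.3% is near the 11.8% of all genes tested, so the values that follow describe those genes only. *Vegfa*, a vascular growth factor, had 3010, 3208 and 3836 normalized counts against 2282, 806 and 2028 (log2 fold change 0.97, SE 0.38, and 0.63 without wildtype replicate 2), and *Il4ra*, the interleukin-4 receptor, had 802, 885 and 727 against 599.6, 634 and 487 (log2 fold change 0.49, SE 0.16). Below 0 were *Ier3*, whose genotypes overlapped, with a log2 fold change of -1.29 (SE 0.53) that was -0.62 without wildtype replicate 1, and *Batf*, a transcription factor. *Batf* had 9.56, 6.51 and 5.68 normalized counts against 35.2, 192 and 11.8, and its log2 fold change of -3.44 (SE 1.07) was -1.70 without wildtype replicate 2. *Fosl2* was higher without overlap (log2 fold change 0.37), and the abundant *Hif1a* overlapped, with 13560 ± 345 and 10836 ± 4812 normalized counts (SD, n = 3).

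Of the 9 tested members, 5 had a log2 fold change above 0 and 4 below, with a median of 0.01. *Lepr* and *Stat3* had an unadjusted p under 0.05, which is 22.2% of the tested members against 11.8% of all genes tested. *Osmr* and *Stat3* were higher without overlap, against 10.4% of all genes tested, and *Lepr* was lower without overlap, against 9.54%. Over the 6 lists together, 76 of 88 genes were tested, 14.5% had an unadjusted p under 0.05, 14.5% were higher without overlap and 7.89% were lower without overlap. DESeq2 called 7 of the 84 list genes with a count, of which 4 were higher and 3 were lower, against 593 of all 17769 genes with a count.

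Levels can be compared between genes once they are divided by exon length. In CPM (counts in proportion to the size of the library) per kilobase, *Il6st* was the highest member, at 126 in *Nhe6*-knockout and 125 in wildtype cultures. *Stat3* was next, at 35.5 and 25.7, before *Osmr*, at 27.9 and 18.0, *Lifr*, at 16.3 and 13.0, and *Il11ra1*, at 11.7 and 12.0. *Lepr* stood at 12.0 in wildtype cultures, level with *Il11ra1* and *Socs3* (11.7), and the ranges of *Osmr*, *Lifr*, *Il11ra1*, *Lepr* and *Socs3* each overlapped their neighbour in the order. In *Nhe6*-knockout cultures *Lepr* was at 1.85, below *Socs3* at 9.29 and above *Lif* at 0.91, and it overlapped neither. By their means, *Lif*, *Il11* and *Il6* were the lowest in both genotypes, all under 1 CPM per kilobase. Single cultures reached 1.43 for *Lif* in *Nhe6*-knockout and 1.46 for *Il11* in wildtype.

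The genes whose levels followed *Lepr* most closely over the 6 libraries were *Pdp1*, *Senp6*, *Snx14*, *Phtf1* and *Flrt3*, with Pearson correlations of log2 CPM from 0.987 to 0.998 among 11120 genes with enough counts. The libraries share the split by genotype, and 83 genes reached 0.95, so these values are a description of 6 points. *Pdp1*, which encodes a phosphatase that activates pyruvate dehydrogenase, had 826, 819.8 and 969.5 normalized counts in *Nhe6*-knockout and 1631, 2490 and 2772 in wildtype cultures. Its log2 fold change of -1.40 was smaller than that of *Lepr*, with the same adjusted p of 0.0952 in edgeR's test. The other 4 genes had log2 fold changes from -0.81 to -0.18.

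**Figure D4:**
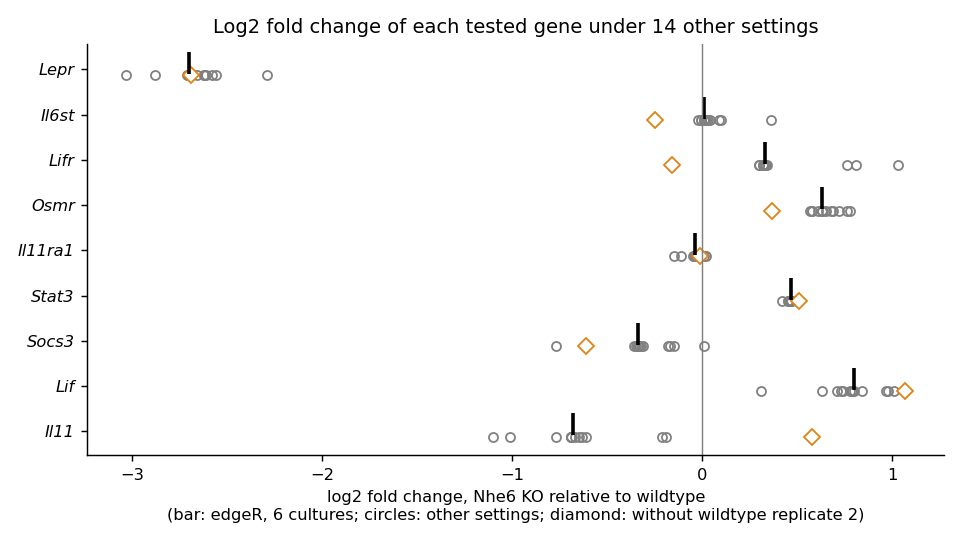
Log2 fold change of *Nhe6*-knockout relative to wildtype (horizontal axis) for the 9 tested members in edgeR's fit of 6 cultures (bar), under 13 other settings (circles) and without wildtype replicate 2 (diamond). *Lepr* stays between -3.03 and -2.29 and *Stat3* between 0.42 and 0.51, while *Il6st*, *Lifr*, *Il11ra1*, *Socs3* and *Il11* have values on both sides of 0.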

How the data were processed

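The authors cultured the cells, made poly(A)-enriched stranded libraries and sequenced them for 75 cycles. The deposited values are raw counts of reads per gene symbol, without normalization. The submitters' processing notes name bcl2fastq 2.20.0.422, STAR 2.7.7a, HTSeq 0.13.5, DESeq2 1.26.0 and mm10, and the gene annotation and the strand setting are not given in the sources used here. Reads outside genes, ambiguous or not uniquely placed stand in 5 summary lines, which held 21.5% to 23.6% of each library and were left out.

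Of 24421 genes, 13479 passed filterByExpr (minimum count 10). Counts were scaled by TMM (factors 0.976 to 1.03) and the genotypes were tested in 1 fit of 6 libraries by edgeR 4.0.16 (quasi-likelihood, two-sided, R 4.3.3). Adjustment was by Benjamini and Hochberg, with 0.05 as the threshold. Normalized counts are scaled to the mean effective library size of 27575286. Errors are SDs over 3 cultures, which the labels give as replicates without saying how they were raised, so p-values measure the spread between these cultures. SEs were derived from the F statistic of each gene. The intervals rest on these SEs, so they also carry the spread between these cultures. Limits for libraries without counts of a gene cover counting of reads, not of molecules.

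The alternatives were other size factors or filters, DESeq2 1.42.0, limma-voom (limma 3.58.1), a replicate block and leaving out each culture. Summing *Nhe6*-knockout replicates 1 and 2 and the ratios of receptor counts were added after seeing the data. The tests were tried on simulated counts. Exon lengths and positions came from GENCODE M21, promoter windows from RefSeq. The members and lists were chosen with earlier results of these data known. Named were the members, *Leprot*, *Il11ra2*, the 5 genes most like *Lepr* with at least 100 normalized counts, and list genes with an unadjusted p under 0.05, without overlap between genotypes, or among the 2 most counted of a list. *Il31ra*, *Jak2*, *Osm*, *Lep*, *Ctf2*, *Il27* and the named cell markers were chosen after their values were seen. Some genes that this rule takes are not reported here.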

Additional observations from a re-analysis of the deposited data

How the results depend on the processing

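No alternative changed the sign of *Lepr*, *Osmr*, *Stat3* or *Lif*. Of 586 values of 42 single genes under 14 alternatives, 552 kept their direction and their side of the threshold. Over all genes, 9 were called in edgeR's fit of 6 cultures, 21 with no filter beyond 1 count, 21 with at least 10 counts in every library, 593 with DESeq2, 1 with *Nhe6*-knockout replicates 1 and 2 summed, and 0 to 395 without 1 culture, with 395 without wildtype replicate 2 and 0 without *Nhe6*-knockout replicate 3. Members called numbered 2 with DESeq2 (*Lepr* and *Stat3*) and 0 to 1 without 1 culture, and list genes called numbered 7 with DESeq2 and 0 to 2 without 1 culture. The replicate numbers did not pair the cultures (correlations of deviations 0.207, -0.189 and 0.111 for replicates 1, 2 and 3), and a fit with the replicate number as a block called 2 genes, none of them a member and not *Cdh5* (adjusted p = 0.0748 by edgeR). The share of *Il6st* among receptors differed by -2.8 percentage points when counts were not divided by length.

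Signs changed for *Il6st* with no filter (-0.0043), *Il11ra1* with replicates summed (0.01) and *Jak1* with upper-quartile scaling (0.0027). Without 1 culture, log2 fold changes ranged from -0.25 to 0.36 for *Il6st*, -0.16 to 1.03 for *Lifr*, -0.15 to 0.02 for *Il11ra1*, -0.77 to 0.01 for *Socs3*, -1.1 to 0.58 for *Il11*, -0.09 to 0.06 for *Jak1*, -0.26 to 0.01 for *Ptpn11* and -0.22 to 1.07 for *Cntfr*, the receptor of ciliary neurotrophic factor. The cause was not tested. With 3 cultures in each genotype, and 1 wildtype culture apart, differences such as those of *Lifr* and *Il11* could not be judged.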
